A study of Homo sapiens with 8 samples.

Results

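Interferon-stimulated genes and their regulators were followed through the RNA-seq libraries of U2OS cells, a human osteosarcoma line of mesenchymal origin, in which WSB2 was or was not knocked down. WSB2 is a substrate receptor of a cullin-RING ubiquitin ligase that the study examined as a brake on the NF-κB subunit RelA. The 43 genes were given as a list of symbols, and every symbol matched 1 gene among the 58735 genes of the deposited tables. Lentivirally transduced, puromycin-selected cells carried a control shRNA (genotype WT in the labels) or a WSB2 shRNA (KD), and each line was left unstimulated or treated with TNF-α for 5 h, with 2 libraries in each of the 4 groups and 8 libraries in all. The parental line, the culture medium and the shRNA backbone were shared by all groups, and only 1 shRNA against WSB2 is described for these libraries. Nothing in the labels says that the 2 libraries of a group came from separate cultures, so the p-values below measure the spread between these libraries, which may be technical.

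Type I and type III interferons signal through JAK1 and TYK2 to transcription factors such as STAT2, which joins IRF9 in the complex ISGF3 to bind interferon-stimulated response elements (ISREs) in the promoters of antiviral genes. Interferon-γ acts at GAS elements, and the interferon regulatory factor IRF1 binds ISRE-like sites as well. TNF-α acts mainly through NF-κB, and IRF1 is one of its known direct targets in many cell types.

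Expression was measured as FPKM, fragments scaled to exon length and library size, which allows levels to be compared between genes. The reads behind the values were recovered from the tables and came to 15601098 to 18677023 per library. The library size used in the FPKM values was 1.21 times these reads in both unstimulated KD libraries and 0.925 to 1.03 times in the other 6. The targeted gene WSB2 stood at 27.7 and 28.0 FPKM in unstimulated control cells, 8.38 and 8.52 in unstimulated KD cells, 25.0 and 25.3 in stimulated control cells and 9.00 and 9.18 in stimulated KD cells. KD lowered it by a log2 fold change of -1.61 ± 0.07 (SE) without TNF-α and -1.37 ± 0.07 with it. The 2 unstimulated KD libraries stood apart from the other 6: they had 4.10 to 4.42% mitochondrial reads (1.11 to 2.03% elsewhere), a read-weighted GC content of 49.5 to 50.0% (52.6 to 53.3% elsewhere), and 26225 to 26397 genes detected by at least 1 read (22072 to 22957 elsewhere). Across 16520 tested genes with a known GC content, the KD effect without TNF-α had a Spearman correlation of -0.70 with the GC content of the gene's exons, against 0.04 with TNF-α. This is a description over genes that share their libraries, and because of it the GC content stands beside each change. Of the mesenchymal markers, VIM, COL1A1, SPARC and THY1 were abundant and COL1A2 was near 0. The epithelial keratins KRT8 (mean 262 FPKM) and KRT18 (mean 152 FPKM) were abundant too, while EPCAM, CDH1 and KRT5 had at most 0.482 FPKM in any library and the endothelial markers PECAM1, CDH5 and VWF at most 0.378 FPKM. The leukocyte markers PTPRC, CD3E, CD14 and LYZ had at most 36 reads over all libraries. ITGAM, a leukocyte integrin chain, had 2 to 7 reads in each unstimulated and 28 to 42 reads in each stimulated library, and its part in the results was not tested. In bulk RNA, fewer expressing cells and less RNA per cell cannot be told apart.

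The set was expressed at low to moderate levels. Over the 8 libraries 7 members had a mean of at least 10 FPKM, 18 lay between 1 and 10 FPKM, and 18 were under 1 FPKM. The most abundant was IFITM3, a membrane protein that blocks fusion of entering viruses, at 135 and 104 FPKM in unstimulated control cells, 52.7 and 46.2 in unstimulated KD cells, 118 and 116 in stimulated control cells and 104 and 99.5 in stimulated KD cells. IFI6, a small antiviral protein of the endoplasmic reticulum, followed at 68.2 and 51.2 FPKM in unstimulated control cells, 33.9 and 30.8 in unstimulated KD cells, 61.8 and 67.1 in stimulated control cells and 69.4 and 68.9 in stimulated KD cells. ISG15, a ubiquitin-like modifier, stood at 77.9 and 50.0 FPKM in unstimulated control cells, 22.9 and 23.9 in unstimulated KD cells, 63.7 and 67.2 in stimulated control cells and 63.7 and 63.8 in stimulated KD cells. All 3 had their lowest values in the unstimulated KD libraries, with no overlap with the other 6. Summed over the members, the level was 217 to 223 FPKM in these 2 libraries and 312 to 396 FPKM in the other 6. This sum rested mostly on these 3 genes and IFITM2. By other measures the unstimulated KD libraries were not the lowest: the members took 0.0892 and 0.0916% of the reads there, against 0.0740 and 0.0747% in unstimulated control and 0.0901 to 0.0976% in stimulated libraries, and the mean of log2(FPKM + 1) over the tested members was 1.78 and 1.79, against 1.68 and 1.65 in unstimulated control and 1.92 to 1.94 in stimulated libraries. At the other end, XAF1, an antagonist of the apoptosis inhibitor XIAP, had 1 read in all. HERC5, the main ligase for ISG15 in human cells, had 10 reads, all in the unstimulated KD libraries, and a count of 0 in 1 library allows up to 0.0420 FPKM (3 reads at the smallest library size). IFI35 had 33 reads. These 3 did not pass the filter on low reads, and 40 of the 43 members were tested among 16528 genes with limma on log2(FPKM + 1), a scale that understates changes of genes near or under 1 FPKM.

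The interferons themselves were barely detected. IFNB1, IFNA1, IFNG, IFNL2 and IFNL3 had 0 reads in all 8 libraries, which for IFNB1 allows up to 0.233 FPKM in a library. IFNE had 10 reads, IFNL1 17, IFNW1 2 and IFNK 1 over all libraries together. Of the receptor chains, IFNAR1 lay between 2.15 and 5.53 FPKM and IFNGR1 between 5.12 and 7.68. Of the kinases, JAK1 lay between 11.6 and 21.7 FPKM and TYK2 between 6.93 and 16.6. The second chain of the type I receptor, IFNAR2, stayed between 0.0656 and 0.192 FPKM, with 6 to 14 reads per library. IL10RB, also a receptor chain, stayed between 0.0147 and 0.153 FPKM, with 1 to 12 reads. Whether reads of either were lost to overlapping gene models was not tested. Among the members that form or feed ISGF3, STAT2 was found at 5.78 and 6.11 FPKM in unstimulated control cells, 6.14 and 5.72 in unstimulated KD cells, 5.87 and 6.53 in stimulated control cells and 6.75 and 6.39 in stimulated KD cells. The stimulated KD pair of STAT2 lay above both unstimulated pairs and overlapped the stimulated control pair. IRF9, its DNA-binding partner, was at 0.158 and 0.0761 FPKM in unstimulated control cells, 0.253 and 0.314 in unstimulated KD cells, 0.199 and 0.102 in stimulated control cells and 0.229 and 0.0667 in stimulated KD cells, or 4 to 23 reads per library. STAT2 and IRF9 passed the test in none of the 5 comparisons on the deposited values.

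TNF-α raised 10 of the 40 members in control cells and lowered none. Of all 16528 genes, 3.10% were called higher and 1.14% lower in this comparison. At an unadjusted p under 0.05 the members counted 13 higher and 0 lower, beside 1690 higher and 1209 lower of all genes. A voom fit of the recovered reads called 11 members higher and 0 lower, beside 615 and 187 of all genes. The median log2 fold change of the members was 0.06, against 0.01 over all genes. The risen members were 1 transcription factor, 2 RNA sensors, 1 OAS enzyme, 2 guanylate-binding proteins, 1 IFIT protein and 3 ADP-ribose or ubiquitin enzymes.

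The largest rise was that of IRF1, the interferon regulatory factor that is itself an NF-κB target. It stood at 1.63 and 1.29 FPKM in unstimulated control cells, 1.19 and 0.877 in unstimulated KD cells, 6.83 and 7.43 in stimulated control cells and 6.54 and 6.11 in stimulated KD cells. Both stimulated pairs lay above both unstimulated pairs with no overlap. The log2 fold change in control cells was 1.73 ± 0.13 (SE; adjusted p = 0.000270), with an exon GC content of 53.3%, and 1.63 when trends of each library on exon GC content and exon length were removed. GBP2 and GBP1, interferon-inducible GTPases that attack pathogen-containing vacuoles, came next. GBP2 stood at 0.627 and 0.690 FPKM in unstimulated control cells, 0.603 and 0.462 in unstimulated KD cells, 2.47 and 3.22 in stimulated control cells and 2.59 and 2.72 in stimulated KD cells. GBP1 stood at 1.11 and 1.09 FPKM in unstimulated control cells, 1.78 and 1.45 in unstimulated KD cells, 3.65 and 3.74 in stimulated control cells and 4.20 and 4.47 in stimulated KD cells. For both, every stimulated library exceeded every unstimulated one, with log2 fold changes of 1.21 ± 0.12 (adjusted p = 0.00148, GC content 41.1%) and 1.16 ± 0.11 (adjusted p = 0.000943, GC content 41.5%). OAS3, one of the enzymes that make 2′-5′ oligoadenylates and thereby activate RNase L, stood at 3.92 and 5.43 FPKM in unstimulated control cells, 4.65 and 4.66 in unstimulated KD cells, 11.6 and 11.6 in stimulated control cells and 11.1 and 12.1 in stimulated KD cells. Again the stimulated libraries were all higher than the unstimulated ones, by 1.16 ± 0.13 in control cells (adjusted p = 0.00252, GC content 53.0%). Its relatives were called in neither direction: OAS1 had a log2 fold change of 0.18 (adjusted p = 0.362), OAS2 of 0.26 (adjusted p = 0.0569) and OASL of 0.05 (adjusted p = 0.915).

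**Figure D1:**
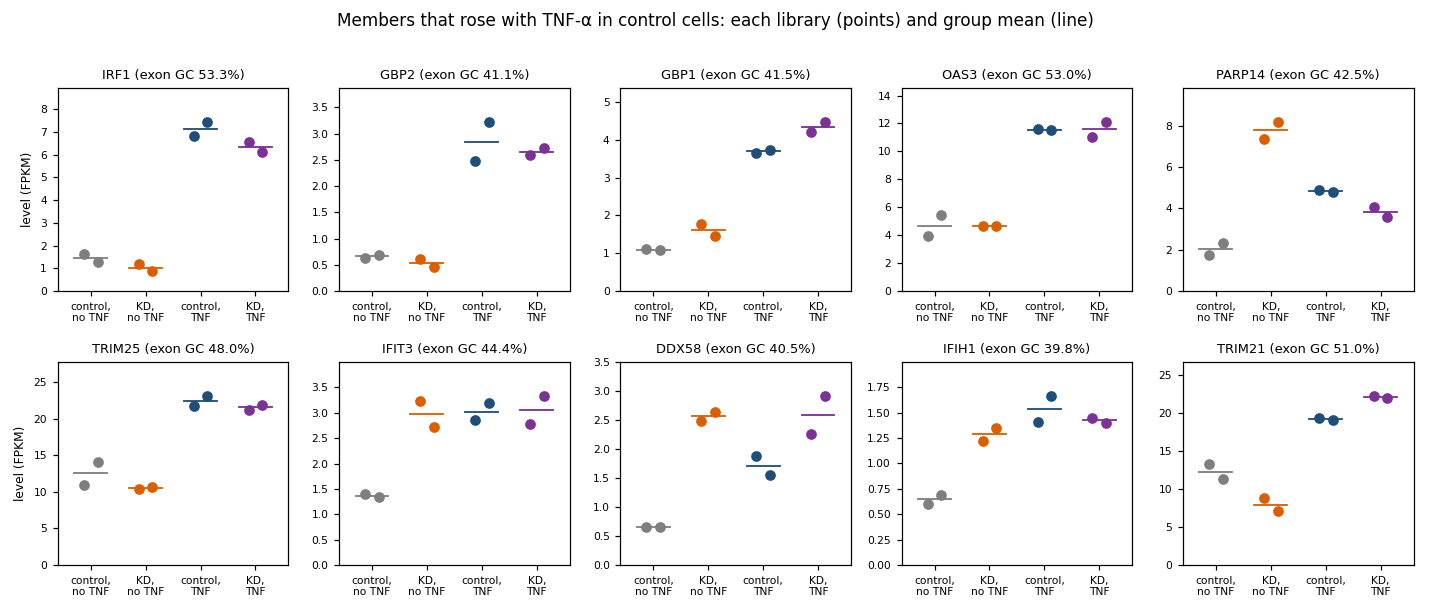
Level in FPKM (y axes, from 0) of the 10 members that rose with TNF-α in control cells, in each of the 8 libraries (points) with the mean of each group (line), by group on the x axes. IRF1, GBP2, GBP1, OAS3, IFIH1, TRIM21 and TRIM25 separate the stimulated from the unstimulated libraries, DDX58, IFIT3 and PARP14 do not, and PARP14 is highest in the unstimulated KD libraries at 7.37 and 8.18 FPKM.

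Of the cytosolic RNA sensors, 2 of 3 rose. DDX58 (RIG-I), which detects short double-stranded RNA with a 5′ triphosphate, stood at 0.659 and 0.650 FPKM in unstimulated control cells, 2.49 and 2.64 in unstimulated KD cells, 1.88 and 1.55 in stimulated control cells and 2.26 and 2.92 in stimulated KD cells. In control cells the stimulated pair was higher than the unstimulated pair by 0.71 ± 0.12 (adjusted p = 0.0210, GC content 40.5%). IFIH1 (MDA5), the sensor of long double-stranded RNA, stood at 0.601 and 0.690 FPKM in unstimulated control cells, 1.23 and 1.35 in unstimulated KD cells, 1.40 and 1.66 in stimulated control cells and 1.45 and 1.40 in stimulated KD cells, a rise of 0.62 ± 0.10 in control cells (adjusted p = 0.0132, GC content 39.8%). DHX58 (LGP2), which modulates both, was at 0.295 and 0.226 FPKM in unstimulated control cells, 0.249 and 0.175 in unstimulated KD cells, 0.245 and 0.101 in stimulated control cells and 0.392 and 0.329 in stimulated KD cells, with 6 to 26 reads per library. Its stimulated KD pair lay above the other 6 libraries, and its stimulated control pair did not lie above the unstimulated one. Among the effectors, IFIT3 was at 1.39 and 1.33 FPKM in unstimulated control cells, 3.23 and 2.73 in unstimulated KD cells, 2.86 and 3.19 in stimulated control cells and 2.78 and 3.33 in stimulated KD cells and rose by 0.77 ± 0.12 in control cells (adjusted p = 0.0136, GC content 44.4%). The other IFIT genes, which encode proteins that bind foreign RNA ends, lay between -0.01 and 0.04 and were not called. Thus within 1 gene cluster on chromosome 10 the 4 IFIT genes did not all pass the test. The 3 remaining members that rose are enzymes. PARP14, an ADP-ribosyltransferase, stood at 1.75 and 2.31 FPKM in unstimulated control cells, 7.37 and 8.18 in unstimulated KD cells, 4.89 and 4.80 in stimulated control cells and 4.08 and 3.56 in stimulated KD cells, higher in stimulated control cells by 0.95 ± 0.12 (adjusted p = 0.00550, GC content 42.5%). TRIM25, the ubiquitin ligase best known for its role in RIG-I signaling, stood at 10.9 and 14.1 FPKM in unstimulated control cells, 10.4 and 10.6 in unstimulated KD cells, 21.8 and 23.1 in stimulated control cells and 21.2 and 21.9 in stimulated KD cells, a rise of 0.80 ± 0.11 (adjusted p = 0.00844, GC content 48.0%). TRIM21, a cytosolic antibody receptor with ligase activity, stood at 13.2 and 11.3 FPKM in unstimulated control cells, 8.81 and 7.12 in unstimulated KD cells, 19.4 and 19.1 in stimulated control cells and 22.3 and 22.0 in stimulated KD cells, a rise of 0.61 ± 0.11 (adjusted p = 0.0263, GC content 51.0%).

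The GC and length correction kept all 10 calls, and their corrected log2 fold changes ran from 0.61 to 1.63. Because the 4 groups share 1 estimate of the spread, the count was also taken in other ways. With only the 4 control libraries in the fit, 4 members passed (IRF1, GBP1, GBP2 and OAS3), and these 4 kept their call in each alternative that was run. The count fell to 5 without the first and to 4 without the second stimulated control library. Without both unstimulated KD libraries it was 9, DDX58 being lost. MX1 and RSAD2 were among the members not called. MX1 stood at 0.0604 to 0.127 FPKM (8 to 19 reads) over the 8 libraries and RSAD2 at 0.0239 to 0.246 FPKM (2 to 23 reads). Their log2 fold changes with TNF-α in control cells were 0.01 and 0.03 (adjusted p = 0.964 and 0.889). At these levels log2(FPKM + 1) hardly moves even when a gene changes, so the missing calls say little about either gene.

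The genes upstream of the set, 35 in all, were counted in the same way. TNF-α raised 7 and lowered 1 of the 24 that could be tested in control cells, beside 3.10% of all genes called higher and 1.14% lower. The list was chosen with earlier results of these data known, so its count is not an independent result. IKBKE, a kinase that phosphorylates IRF3 and IRF7, rose by 1.88 ± 0.09 (adjusted p = 4.27e-05, GC content 58.2%), from 3.91 and 3.49 FPKM to 15.8 and 16.8 FPKM. TICAM1, the adaptor of TLR3, rose by 1.14 ± 0.08 (adjusted p = 0.000275, GC content 63.0%). IFNGR2, the signaling chain of the interferon-γ receptor, rose by 0.91 ± 0.09 (adjusted p = 0.00133, GC content 54.1%), and IRF2, an IRF1 antagonist, by 0.74 ± 0.12 (adjusted p = 0.0141, GC content 47.3%). Smaller rises were called for the DNA sensor CGAS (0.56), its adaptor TMEM173, also known as STING (0.54), and TYK2 (0.44), with adjusted p of 0.0437, 0.0426 and 0.0309. SOCS1, a feedback inhibitor of JAK kinases, was the gene that fell, with a log2 fold change of -1.04 ± 0.18 (adjusted p = 0.0198, GC content 68.7%), from 9.10 and 6.66 FPKM to 3.64 and 2.92 FPKM.

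The promoters of the members were then searched for the letters that define the pathway. A window of 250 bases before and 50 after the RefSeq start was found for 33 of the 43 members, and the ISRE core (GAAANNGAAA, either strand) occurred in 21 of them (63.6%) against 3.65% of all 27305 windows. The GAS element (TTCNNNGAA) occurred in 8 (24.2% against 7.88%) and the κB site in 6 (18.2% against 5.72%), and the motifs may overlap each other. Of the 8 members with a window that rose with TNF-α in control cells, 6 held an ISRE core and 3 a κB site (IFIH1, IRF1 and OAS3). Of the 22 tested members with a window that were not called, 14 held an ISRE core and 2 a κB site. A match is only a run of letters in a window and not a measured binding site. The stretches below show the κB and ISRE letters of risen members beside the ISRE letters of 3 members that were not called. They are reference sequence from RefSeq on GRCh38.p14, read 5′ to 3′ along the gene's strand, in lower case with the motif in capitals. They lie before the RefSeq start, and the OAS3 stretch runs past the start that GENCODE 29 gives.
IRF1, κB site at -50, chr5:132490799-132490838, minus strand: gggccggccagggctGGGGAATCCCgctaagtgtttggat
IRF1, GAS element at -124, chr5:132490874-132490912, minus strand: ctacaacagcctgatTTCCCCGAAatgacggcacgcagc
IFIH1, κB site at -76, chr2:162318736-162318775, minus strand: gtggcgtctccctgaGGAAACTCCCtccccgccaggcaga
IFIH1, overlapping ISRE cores on the opposite strand at -159, chr2:162318813-162318858, minus strand: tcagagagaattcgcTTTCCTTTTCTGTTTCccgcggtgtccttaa
OAS3, ISRE core and then κB site at -143, chr12:112938316-112938369, plus strand: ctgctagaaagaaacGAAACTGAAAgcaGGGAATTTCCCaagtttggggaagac
IFIT3, ISRE core on the opposite strand at -156, chr10:89327826-89327865, plus strand: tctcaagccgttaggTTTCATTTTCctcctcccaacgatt
IFIT1, not called, ISRE cores on the opposite strand at -116, chr10:89392492-89392544, plus strand: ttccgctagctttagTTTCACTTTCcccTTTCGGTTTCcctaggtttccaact
IFI6, not called, ISRE core at -156, chr1:27672324-27672363, minus strand: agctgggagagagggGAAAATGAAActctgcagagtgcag
SAMD9, not called, ISRE core at -136, chr7:93118091-93118130, minus strand: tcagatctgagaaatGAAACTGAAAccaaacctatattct
IRF1 had a κB site and a GAS element but no ISRE core in its window. OAS3 had an ISRE core next to its κB site, while IFIT3 and IFIT1, of the same cluster on chromosome 10, both held ISRE cores and differed in their call.

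The central comparison of the study is KD against control cells under TNF-α. Here 1 of the 40 members was called, IFITM2, and none was higher. Over all genes 0.0605% were called higher and 0.0545% lower. At an unadjusted p under 0.05 there were 3 members higher (DDX58, DHX58 and OAS2) and 1 lower. Of all 16528 genes, 731 were higher and 617 lower at that threshold. The voom fit called 0 members higher and 1 lower, beside 34 and 18 of all genes. IFITM2, which restricts virus entry from endosomes, stood at 37.0 and 28.2 FPKM in unstimulated control cells, 8.70 and 8.16 in unstimulated KD cells, 27.0 and 27.7 in stimulated control cells and 13.2 and 13.9 in stimulated KD cells. It was lower in KD cells in both conditions, with no overlap between any KD and any control library. Under TNF-α the log2 fold change was -0.97 ± 0.12 (adjusted p = 0.0489, GC content 55.6%), and -0.96 after the GC and length correction (adjusted p = 0.00723). The size hardly moved between alternatives, from -1.02 to -0.93, but the adjusted p crossed the threshold in 10 of them, among these the fit without both unstimulated KD libraries. IFITM1, IFITM2 and IFITM3 are close paralogs, and in GENCODE 29 the gene models of IFITM2 and IFITM1 overlap on the same strand, so reads may be split or lost between them. Beside IFITM2, IFITM3 was at -0.19 under TNF-α (adjusted p = 0.813) and IFITM1 at 0.11 (adjusted p = 0.925).

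**Figure D2:**
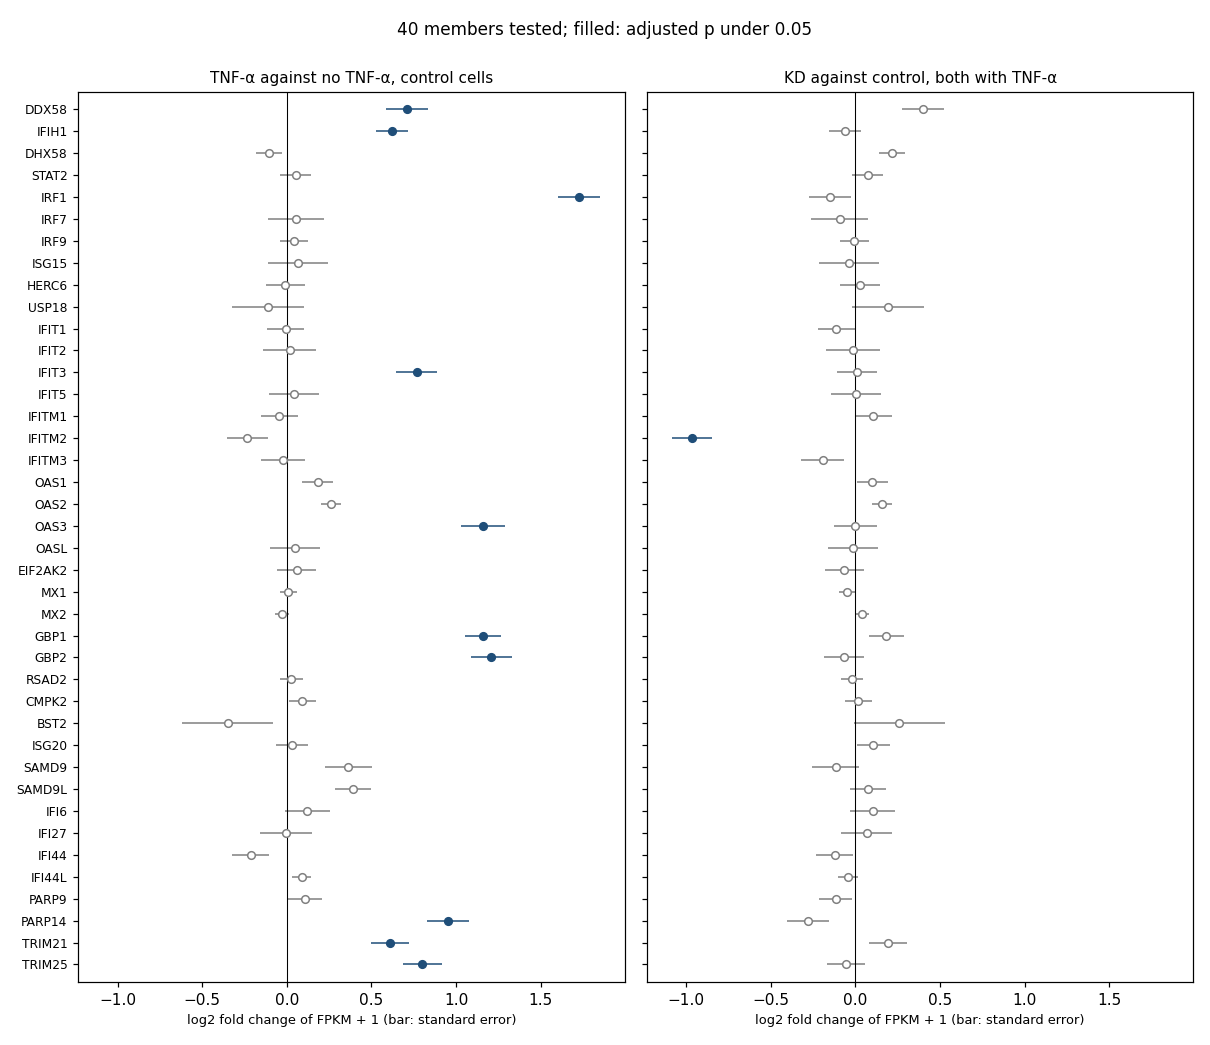
Log2 fold change of FPKM + 1 (x axes) with its standard error (bars) for the 40 tested members (y axis, grouped by role), for TNF-α in control cells on the left and for KD against control under TNF-α on the right. Filled points have an adjusted p under 0.05: 10 on the left, all above 0, and IFITM2 alone on the right.

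The members that TNF-α raised in control cells had KD effects under TNF-α between -0.28 for PARP14 and 0.40 for DDX58, and none passed the test. IRF1 had a KD effect of -0.15 ± 0.13 (adjusted p = 0.879) and OAS3 of 0.00 ± 0.13 (adjusted p = 1.00). DDX58 was the highest of all 40, with each stimulated KD library (2.26 and 2.92) above each stimulated control library (1.88 and 1.55), a difference of 0.40 ± 0.12 that did not pass (adjusted p = 0.395). The median over the members was -0.00, as over all genes, and 20 of the 40 were above 0. None of the 24 upstream genes was called with limma or with voom, and at an unadjusted p under 0.05 there were 1 higher (IFNGR2, 0.21) and 1 lower (TMEM173, -0.29).

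Without TNF-α, KD and control cells differed at 22 of the 40 members, 15 higher and 7 lower in KD cells. These counts stand beside 29.8% of all genes called higher and 30.2% called lower, so that more genes than not differed between these libraries, and neither count of members is by itself a result about them. Of the 24 upstream genes, 9 were higher and 7 lower. The members divided along GC content as the other genes did. Of 16 members under 45% GC, 14 were higher in KD cells and none lower, with a median of 0.75 (all genes under 45%: 0.44). Of 18 members at 50% GC or more, 7 were lower and none higher, with a median of -0.31 (all genes at 50% or more: -0.39). Mitochondrial share and number of detected genes moved with this comparison as given above. So did cell type markers: of the 8 mesenchymal markers 5 were lower and 1 higher. Corrected for GC content and length, VIM, SPARC and THY1 (-0.77, -0.41 corrected) stayed lower and RUNX2 higher. COL1A1 (-0.47, -0.15 corrected) and ALPL (-0.69, -0.13 corrected) lost their call, and COL1A2 was called lower only then. Of the 5 epithelial ones KRT8 was at -1.25 (adjusted p = 0.000280, -0.97 corrected) and KRT18 at -1.13 (adjusted p = 0.000245, -0.64 corrected), both called either way. The part of these in the comparison was not tested.

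**Figure D3:**
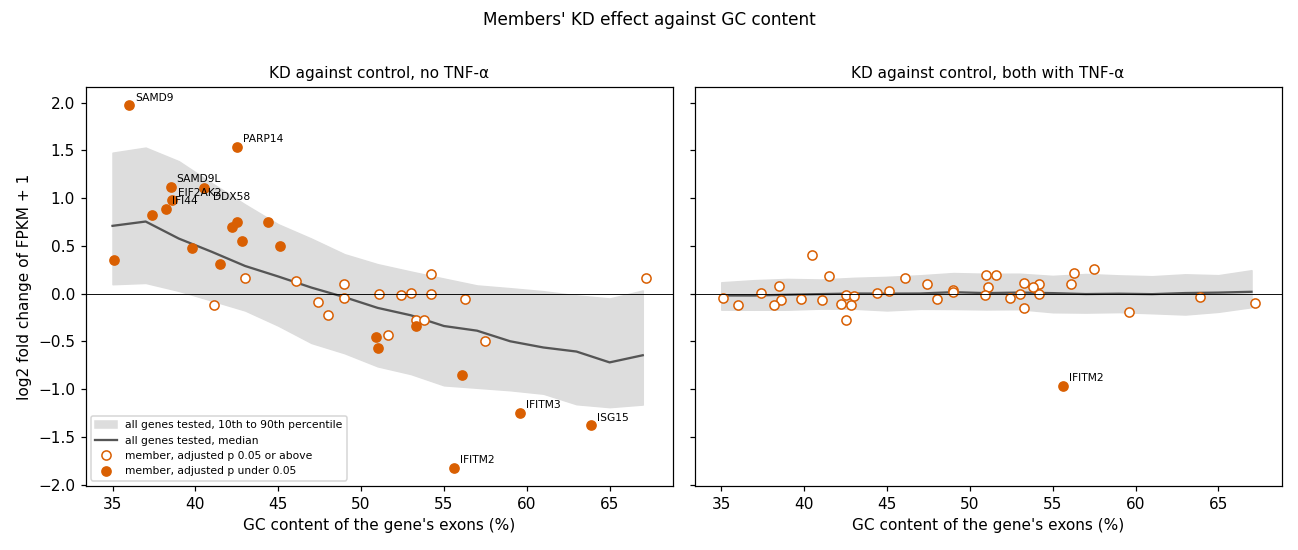
KD effect as log2 fold change of FPKM + 1 (y axis) against the GC content of the gene's exons in % (x axes) without TNF-α (left) and with TNF-α (right) for the 40 tested members (points, filled where the adjusted p is under 0.05). The line is the median of all genes tested in bins of 2 percentage points and the band their 10th to 90th percentile; on the left the line and most called members go from above 0 at low GC content to below 0 at high GC content, with SAMD9 at 1.97 and IFITM2 at -1.82 far from the line, and on the right the line is flat.

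With the GC and length trends of each library removed, 13 members were higher and 8 lower. Of all 16528 genes this fit called 3921 higher and 4642 lower, so neither count is by itself a result about the members. Of the calls on the deposited values, 9 higher and 5 lower ones kept their call and direction. The 9 were DDX58, HERC6, IFIT1, IFIT2, IFIT3, SAMD9, SAMD9L, IFI44 and PARP14, and the 5 were ISG15, IFITM2, IFITM3, IFI6 and TRIM21. The call was lost for 7 (IFIH1, IFIT5, OASL, EIF2AK2, GBP1, ISG20 and PARP9). IFI44L turned from 0.35 to -0.56 and was called both ways. Its reads were 8 and 22 in unstimulated control cells and 74 and 82 in unstimulated KD cells. A further 6 were called only after the correction: DHX58, IRF7, IRF9 and IFITM1 higher, GBP2 and TRIM25 lower. The correction adds the same shift to a gene near 0 FPKM as to an abundant one of equal GC content and length. It moved IRF7 from 0.17 to 0.84, IRF9 from 0.20 to 0.57, DHX58 from -0.06 to 0.39 and IFITM1 from -0.00 to 0.38. Most of these corrected values is thus the shift, and IRF7 and IRF9 had 116 and 93 reads over all libraries. The turned sign of IFI44L also rests on this shift, at levels under 1 FPKM. IRF7, the factor that amplifies interferon-α expression, was deposited at 0.0761 and 0.484 FPKM in unstimulated control cells, 0.557 and 0.296 in unstimulated KD cells, 0.383 and 0.247 in stimulated control cells and 0.352 and 0.120 in stimulated KD cells, without separation of the groups.

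**Figure D4:**
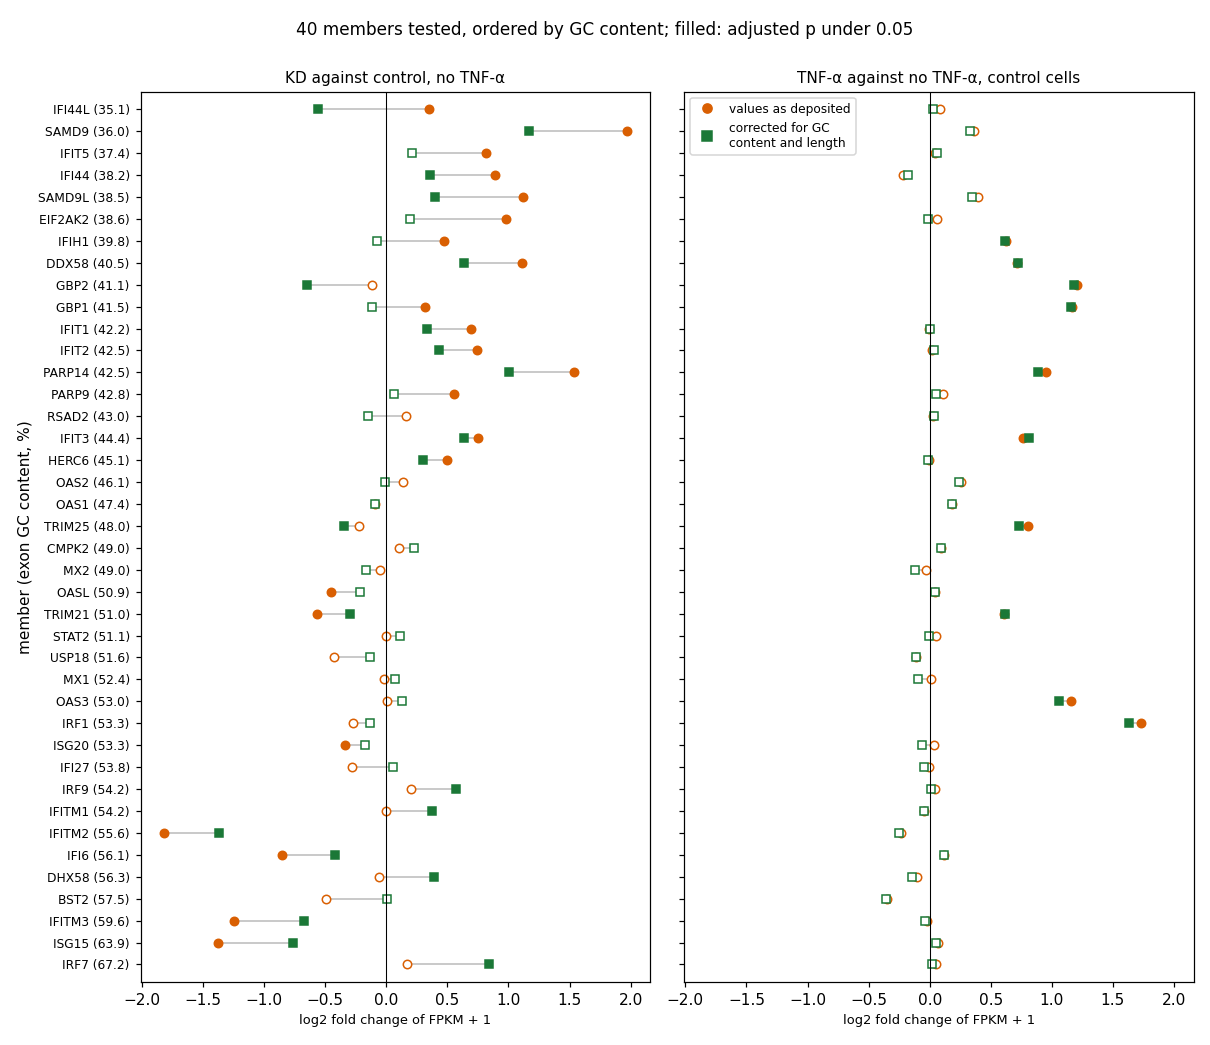
Log2 fold change of FPKM + 1 (x axes) of the 40 tested members, ordered by exon GC content (in % beside each name, y axis), on the deposited values (circles) and with the GC and length trends removed (squares), filled where the adjusted p is under 0.05. Without TNF-α (left) the correction moves low-GC members down and high-GC members up, and in control cells with TNF-α (right) the 10 calls stay in place.

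The largest difference was that of SAMD9, an antiviral translation inhibitor, with an exon GC content of 36.0%. It stood at 0.331 and 0.640 FPKM in unstimulated control cells, 4.35 and 5.27 in unstimulated KD cells, 0.953 and 0.851 in stimulated control cells and 0.878 and 0.637 in stimulated KD cells. Only the unstimulated KD libraries were high, by 1.97 ± 0.14 (adjusted p = 0.000124), or 1.17 after correction. Its neighbor and paralog SAMD9L (GC content 38.5%) stood at 0.178 and 0.227 FPKM in unstimulated control cells, 1.39 and 1.84 in unstimulated KD cells, 0.669 and 0.491 in stimulated control cells and 0.706 and 0.621 in stimulated KD cells, higher by 1.12 ± 0.11 (adjusted p = 0.000190; 0.40 corrected). PARP14 (GC content 42.5%), with the values given above, was higher in KD cells by 1.54 ± 0.12 (adjusted p = 0.000145; 1.00 corrected). PARP9 (GC content 42.8%), a partner of the ubiquitin ligase DTX3L, stood at 2.23 and 2.48 FPKM in unstimulated control cells, 3.88 and 3.95 in unstimulated KD cells, 2.69 and 2.53 in stimulated control cells and 2.31 and 2.36 in stimulated KD cells, and its difference of 0.55 became 0.07 and lost its call.

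EIF2AK2 (GC content 38.6%), the kinase PKR that halts translation on sensing double-stranded RNA, stood at 3.99 and 4.87 FPKM in unstimulated control cells, 9.23 and 10.1 in unstimulated KD cells, 4.96 and 4.33 in stimulated control cells and 4.35 and 4.42 in stimulated KD cells. Its difference of 0.98 ± 0.11 (adjusted p = 0.000340) became 0.19 after correction (adjusted p = 0.0681). All 4 IFIT genes were higher in unstimulated KD cells on the deposited values, and 3 after correction. IFIT1 (GC content 42.2%) stood at 0.911 and 0.977 FPKM in unstimulated control cells, 1.89 and 2.43 in unstimulated KD cells, 0.885 and 0.984 in stimulated control cells and 0.841 and 0.741 in stimulated KD cells, a difference of 0.70 (0.34 corrected). IFIT2 (GC content 42.5%) stood at 0.309 and 0.549 FPKM in unstimulated control cells, 1.30 and 1.48 in unstimulated KD cells, 0.659 and 0.253 in stimulated control cells and 0.296 and 0.571 in stimulated KD cells, a difference of 0.75 (0.43 corrected). IFIT3 (GC content 44.4%) differed by 0.75 (0.64 corrected), and its unstimulated KD values overlapped those of stimulated cells. IFIT5 (GC content 37.4%) stood at 1.35 and 2.00 FPKM in unstimulated control cells, 3.29 and 4.10 in unstimulated KD cells, 1.75 and 1.71 in stimulated control cells and 1.67 and 1.81 in stimulated KD cells, and 0.82 became 0.21. For IFIT1 and IFIT5 both unstimulated KD libraries lay above all others, as they did for IFIT2.

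IFI44, an interferon-induced protein of poorly defined function, had a GC content of 38.2% and stood at 12.0 and 9.92 FPKM in unstimulated control cells, 20.5 and 21.6 in unstimulated KD cells, 9.87 and 8.69 in stimulated control cells and 8.09 and 8.75 in stimulated KD cells, a difference of 0.89 ± 0.11 (0.36 corrected). Its relative IFI44L (GC content 35.1%, the lowest of the set) stood at 0.0521 and 0.124 FPKM in unstimulated control cells, 0.365 and 0.415 in unstimulated KD cells, 0.178 and 0.133 in stimulated control cells and 0.124 and 0.117 in stimulated KD cells. The DDX58 difference of 1.11 ± 0.12 (adjusted p = 0.000291) fell to 0.64 after correction and kept its call, and that of IFIH1 went from 0.47 to -0.08. Among these low-GC members the unstimulated KD pair was thus the highest pair for SAMD9, SAMD9L, PARP14, PARP9, EIF2AK2, IFIT1, IFIT2, IFIT5, IFI44 and IFI44L.

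The members that were lower in unstimulated KD cells had a GC content of 50.9 to 63.9%. IFITM2 fell furthest in the set, by 1.82 on the log2 scale (adjusted p = 0.000119), with -1.37 after correction. ISG15 (GC content 63.9%) had a difference of -1.38 ± 0.18 (adjusted p = 0.000452; -0.76 corrected). IFITM3 (GC content 59.6%) had -1.25 ± 0.13 (adjusted p = 0.000235; -0.68 corrected), and IFI6 (GC content 56.1%) had -0.85 ± 0.13 (adjusted p = 0.000999; -0.42 corrected). For these 4 abundant genes the corrected differences still passed the test (adjusted p = 0.000243, 0.00206, 0.000625 and 0.00382). TRIM21 went from -0.57 to -0.30 and kept its call. ISG20, a 3′ exonuclease with a GC content of 53.3%, stood at 0.534 and 0.698 FPKM in unstimulated control cells, 0.301 and 0.260 in unstimulated KD cells, 0.623 and 0.678 in stimulated control cells and 0.920 and 0.644 in stimulated KD cells, and its difference of -0.33 became -0.18 and lost its call. ISG15 and IFIT1, with GC contents of 63.9% and 42.2%, thus differed in opposite directions between these libraries, and the cause was not tested. IRF1 had -0.28 without a call (adjusted p = 0.0907).

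**Figure D5:**
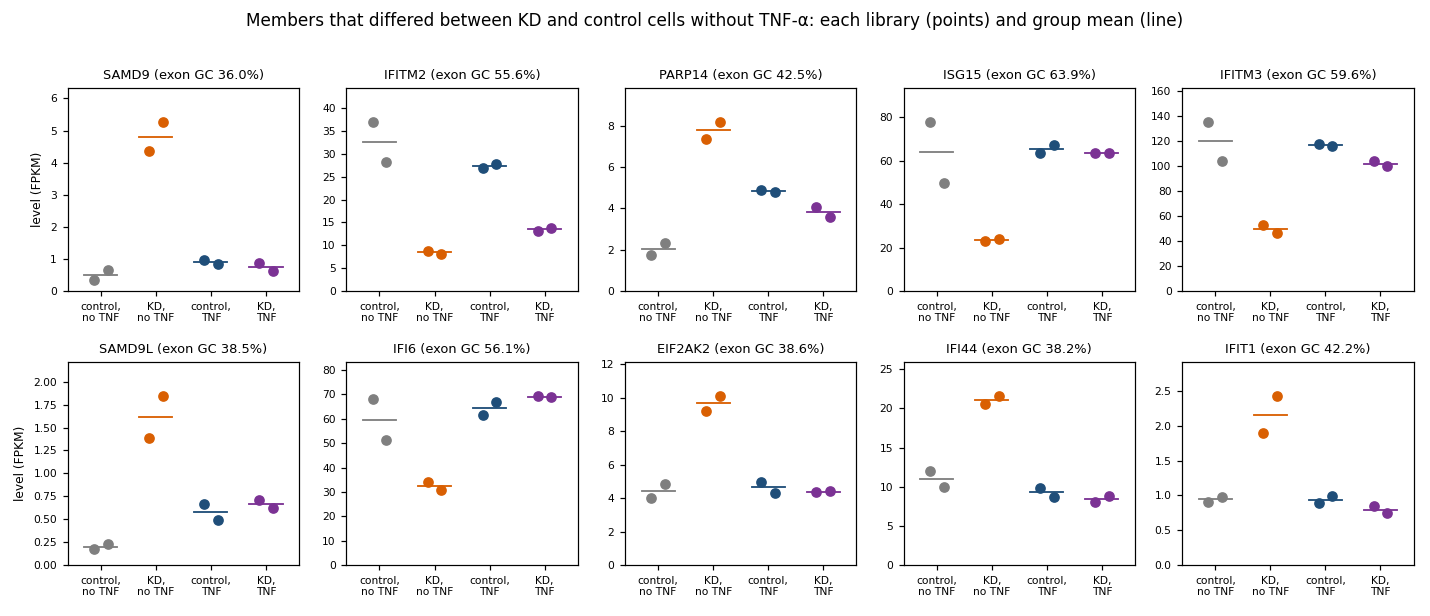
Level in FPKM (y axes, from 0) in each of the 8 libraries (points) with group means (lines), by group on the x axes, for the 6 called members with the largest KD effect without TNF-α and for IFI6, EIF2AK2, IFI44 and IFIT1. The unstimulated KD pair lies outside the range of the other 6 libraries in each panel, and for IFITM2 both KD groups lie below both control groups.

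TNF-α in KD cells was called at 25 of the 40 members, 14 higher and 11 lower, beside 31.1% of all genes called higher and 31.4% lower. This comparison contains the unstimulated KD libraries, as the preceding one does, so the calls of the 2 comparisons are not independent. With upper-quartile scaling, which puts the median of all genes at -0.19, the split was 11 higher and 13 lower. Of the 24 upstream genes, 8 rose and 8 fell. All 7 members that were lower in unstimulated KD cells rose with TNF-α in KD cells, and 11 of the 15 that were higher fell. Of the 10 members that rose in control cells, 6 also rose in KD cells: IRF1 by 1.85 ± 0.13 (adjusted p = 4.69e-05), GBP2 by 1.26, TRIM21 by 1.37, OAS3 by 1.15, GBP1 by 1.03 and TRIM25 by 0.97. PARP14 rose in control cells and fell in KD cells, by 0.87 on the log2 scale (adjusted p = 0.000585). DDX58 (0.00), IFIH1 (0.09) and IFIT3 (0.03) were not called in KD cells. With the GC and length correction DDX58 (0.49, adjusted p = 0.00686) and IFIH1 (0.64, adjusted p = 0.00113) were called higher as well, which made 8 of the 10. Most of these 2 corrected values is the removed trend, as the deposited changes just given show. OAS1, OAS2 and OASL were called higher in KD cells (log2 fold changes 0.37, 0.29 and 0.49, adjusted p = 0.00839, 0.00385 and 0.0209, GC content 47.4, 46.1 and 50.9%). Over 18 alternatives this call was lost in 4 for OAS1, in 0 for OAS2 and in 9 for OASL. With the GC and length correction OASL was at 0.22 (adjusted p = 0.178). The difference between the responses in KD and control cells was called for none of them (0.19, 0.03 and 0.44, adjusted p = 0.261, 0.824 and 0.121).

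The difference between the responses to TNF-α in KD and in control cells, which is the interaction term, was called at 19 members, 6 above and 13 below 0. Of all genes 23.8% were called above and 22.3% below 0. Its Spearman correlation with GC content over 16520 genes was 0.68, and the 13 members below 0 all had a GC content under 45%. After the correction 7 were above and 7 below 0, beside 3259 above and 2532 below of all 16528 genes. Called in the same direction both times were 10 members: ISG15, IFITM2, IFITM3, IFI6 and TRIM21 above, and IFIT1, IFIT3, SAMD9, IFI44 and PARP14 below. The furthest from 0 was SAMD9 at -2.09 ± 0.20 (adjusted p = 0.00111; -1.28 corrected), followed by PARP14 at -1.82 ± 0.17 (adjusted p = 0.00111; -1.28 corrected). ISG15 was the highest at 1.34 ± 0.25 (adjusted p = 0.00447; 0.73 corrected). In each of these cases the KD and control libraries lay further apart without TNF-α than with it, as their values above show. For IRF1 the interaction was 0.13 ± 0.18 (adjusted p = 0.590), and for OAS3, GBP1 and GBP2 it was -0.01, -0.13 and 0.05, none of them called.

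On the deposited values no call was made in any of the 5 comparisons for 12 members. These were DHX58, STAT2, IRF7, IRF9, USP18, IFITM1, MX1, MX2, RSAD2, CMPK2, BST2 and IFI27. With the GC and length correction DHX58, IRF7, IRF9, IFITM1 and MX1 were called lower with TNF-α in KD cells. The corrected log2 fold changes ran from -0.23 (MX1, adjusted p = 0.00909) to -0.93 (IRF7, adjusted p = 0.00639). On the deposited values they were 0.17 for DHX58, 0.06 for IFITM1, -0.03 for MX1, -0.16 for IRF9 and -0.21 for IRF7. The correction thus turned the sign for DHX58 and IFITM1, and all of these genes stood under 1 FPKM in every library. DHX58, IRF7, IRF9 and IFITM1 were called higher in unstimulated KD cells as given above, also only after the correction. Of the 12 members, USP18, the protease that removes ISG15, stood at 0.900 to 2.27 FPKM over the 8 libraries. BST2 (tetherin), which holds budding virions at the cell surface, stood at 0.766 to 2.86 FPKM. MX2, a GTPase that blocks nuclear entry of retroviruses, stayed at or under 0.0710 FPKM. CMPK2, a mitochondrial nucleotide kinase, and RSAD2 (viperin) are neighbors whose gene models overlap on opposite strands. Whether reads were counted by strand is not given in the sources used here, so reads of the overlap cannot be assigned.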

How the data were processed

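RNA from 8 U2OS libraries was sequenced on an Illumina instrument. Per the labels and the study's methods, the libraries were made from total RNA with Illumina kits; the authors deposited 1 table per group with an FPKM value per gene and library. The submitters' processing notes list CASAVA 1.8, fastp, HISAT2 2.0.5, featureCounts 1.5.0-p3, DESeq2 1.20.0 and GRCh38, without roles, and the study's Methods name edgeR for its tests. The strand setting and any filters are not given in the sources used here.

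FPKM multiplied by exon length gave whole reads for all values (within 0.05 reads), 15601098 to 18677023 per library, which sets the precision of low values; bounds for a count of 0 rest on 3 reads and cover counting error only. Genes were joined to GENCODE 29 by Ensembl identifier, position and length (58735 of 58735). The 43 members, the 35 upstream genes and the markers were chosen with earlier results of these data known. Some genes of these lists are not reported here. MB21D1 on the upstream list was read under its current symbol CGAS.

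A gene entered the test when 2 or more libraries held 10 or more of its reads (scaled to the median depth) and its total reached 15. The test was limma 3.58.1 (R 4.3.3) on log2(FPKM + 1), with a mean per group, a trend on expression, all 8 libraries (4 residual degrees of freedom) and Benjamini-Hochberg adjustment over 16528 genes at 0.05. The values are FPKM and not counts, so the edgeR test of the study was not the main one. The fit was tested on simulated data. For the GC and length correction, natural splines with 5 degrees of freedom on GC content and log exon length were fitted to each library and removed. Values in every library are given for members called with TNF-α between KD and control cells or in the interaction, the 6 largest called effects of each other comparison, the 3 most abundant members, the sensors and the transcription factors. The alternatives changed the pseudocount, scaling, low-value filter, libraries in the fit, test, GC correction, replicate block and call rule. Promoter windows came from the RefSeq table of GRCh38.p14; DDX58, DHX58, IRF7, USP18, IFIT2, IFITM2, OAS2, OASL, MX2 and GBP2 had none there.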

Additional observations from a re-analysis of the deposited data

Results flagged for a closer look

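The response to TNF-α differed between KD and control cells at 19 members by the interaction term of the limma fit (adjusted p under 0.05 over all genes), where 23.8% of all genes were called above 0 and 22.3% below. On the log2 scale, as the response in KD cells minus that in control cells, the values above 0 were 1.34 for ISG15, 1.05 for IFITM3, 0.95 for IFI6, 0.86 for IFITM2, 0.76 for TRIM21 and 0.44 for ISG20. The values below 0 were -2.09 for SAMD9, -1.82 for PARP14, -1.04 for EIF2AK2, -1.04 for SAMD9L, -1.01 for IFI44, -0.81 for IFIT5, -0.81 for IFIT1, -0.76 for IFIT2, -0.74 for IFIT3, -0.71 for DDX58, -0.67 for PARP9, -0.54 for IFIH1 and -0.40 for IFI44L. All 19 contain the 2 unstimulated KD libraries, which stand apart in GC content and mitochondrial share, and the 10 named in the results kept call and direction with the GC and length correction. Over the 17 alternatives run for this term, ISG20 lost its call in 11, IFIT2 in 8, DDX58 and IFIT5 in 4 each, IFIH1 in 3, EIF2AK2, PARP9 and SAMD9L in 2 each and IFIT1 in 1, and IFI44L and IFIH1 turned direction in 2 each. Groups of 2 libraries are too small to look for single outlying libraries.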

How the results depend on the processing

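Of the counts of members called, that for KD against control without TNF-α stayed at 20 to 23 over the fits that left out 1 library (22 with all), that for TNF-α in KD cells at 23 to 27 (25 with all) and that for the interaction at 14 to 22 (19 with all). That for TNF-α in control cells ran from 4 (without the second stimulated control library) to 12 (without the second unstimulated control library) around 10, and was 4 with only the 4 libraries compared. That for KD against control with TNF-α was 0 or 1: IFITM2 kept its call without either unstimulated control library and lost it without any other. It was also 0 with a pseudocount of 0.1, with no filter on low reads, with the replicate block and, an alternative chosen after seeing the data, without both unstimulated KD libraries. Under the unadjusted p and fold thresholds of the study's Methods the counts were 0 with TNF-α, 7 without TNF-α, 4 for TNF-α in control cells, 10 for TNF-α in KD cells and 7 for the interaction. The GC and length correction, with or without the replicate block, reversed GBP1 (-0.12), IFI44L (-0.56) and IFIH1 (-0.0766) in KD against control without TNF-α, IFI44L (0.54) and SAMD9L (0.0347) for TNF-α in KD cells, and IFI44L (0.52) and IFIH1 (0.0221) in the interaction. IFI44L stood under 1 FPKM in every library, where the correction applies the same shift as to an abundant gene. The replicate block with the correction left 11 members in the interaction. The replicate block alone gave 0, 22, 10, 26 and 20 members in the order of comparisons above starting with KD under TNF-α. Deviations of same-numbered libraries correlated at -0.19 to 0.35 between groups, so the numbers were not taken to pair the libraries. Scaling to total reads or upper quartiles put the median of all genes at 0.13 and 0.12 for KD without TNF-α, and at -0.19 for TNF-α in KD cells, where the members' median turned from 0.07 to -0.06; with upper quartiles all genes split into 6472 higher and 3520 lower in place of 4932 and 4996. Scaling to total reads changes only the library sizes, whose ratio to the recovered reads is given in the results. Why that ratio differs between libraries was not tested, nor were other causes. Precision is limited by 2 libraries per group and, for the 18 members under 1 FPKM, by few reads.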
